A study of Mus musculus with 30 samples.

Results

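Circadian clock and clock output genes were followed in mouse liver after exposure to cadmium before birth. The genes were chosen by symbol from a list of 10 (Arntl, Per1, Per2, Per3, Cry1, Nr1d1, Nr1d2, Dbp, Ciart and Rora). Of these, 9 were measured, among 14259 genes in the tables for postnatal day (PND) 1 and PND21 and 13091 genes in the table for PND42. Per3 is not analysed here. The question of the study was what cadmium met in the womb does to liver transcripts at 3 later ages, and it sequenced liver RNA from CD-1 mice, an outbred stock, in 30 libraries. Exposed animals had met cadmium chloride (CdCl2) at 500 ppb during gestation, and control animals had not. There were 4 exposed and 4 control females at PND1, 3 exposed and 3 control females at PND21, and 4 exposed and 4 control animals of each sex at PND42. No source used here gives the litters or the time of day at which livers were collected. The part of collection time in any result below was not tested.

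The circadian clock is a feedback loop of transcription that runs in nearly every cell. BMAL1, the product of Arntl, pairs with CLOCK or NPAS2 and binds E-box sequences to switch on the Per, Cry, Nr1d, Dbp and Ciart genes, and PER, CRY and CIART proteins then repress that pair. REV-ERB proteins (from Nr1d1 and Nr1d2) repress Arntl, Clock, Npas2, Nfil3 and Cry1, while ROR proteins, such as that of Rora, activate them, and DBP with its relatives TEF and HLF carries the rhythm to output genes through D-boxes. In liver the transcripts of these limbs peak at different hours, and they set daily rhythms in heme, bile acid, lipid and drug metabolism.

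Promoter sequence was available for 8 of the 9 genes from RefSeq (GRCm38.p6), as windows of 250 bases before to 50 bases after each annotated start. Per2 had no entry. The E-box letters CACGTG, the ROR core TAGGTCA and the D-box letters TTATGTAA or TTACGTAA were searched on both strands. The E-box was in the windows of Ciart, Per1 and Cry1, and is in 7.15% of all 32851 windows. The ROR core was in a window of Arntl, and is in 2.61% of all windows. No D-box letters were in a window of the measured genes, against 1.06% of all windows. The matching stretches of Ciart, Per1, Cry1 and Arntl are shown, and capitals mark the matches. A match is a description of these letters, not evidence of binding.
Ciart, chr3:95882259-95882358, minus strand, upstream of its start: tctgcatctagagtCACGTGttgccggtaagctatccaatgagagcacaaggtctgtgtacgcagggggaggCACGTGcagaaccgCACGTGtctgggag
Per1, chr11:69098763-69098808, plus strand, upstream of the start used and inside the longer Per1 gene: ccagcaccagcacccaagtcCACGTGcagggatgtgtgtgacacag
Cry1, chr10:85185089-85185134, minus strand, upstream of its start: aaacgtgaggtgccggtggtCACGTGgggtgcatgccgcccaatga
Arntl, chr7:113207530-113207559, plus strand, inside the first transcribed bases: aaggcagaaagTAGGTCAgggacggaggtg
Ciart held 3 E-boxes, which began 116, 58 and 44 bases before its start. The E-box of Cry1 began 60 bases before its start. That of Per1 began 166 bases before the start used, and the window of the other Per1 start held no E-box. The ROR core of Arntl began 30 bases after the annotated start that lies in the window at chr7:113207261-113207560. The window of its other start, at chr7:113207215-113207514, held no ROR core.

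All positions are on mm10, from GENCODE vM21. Arntl lies at chr7:113207465-113314126, Per1 at chr11:69095217-69109960, Per2 at chr1:91415982-91459324 and Cry1 at chr10:85131700-85185064. Nr1d2 lies at chr14:18204054-18239127 and Ciart at chr3:95878503-95882251. Rora, at chr9:68653786-69388246, is a very long gene with 721 kb of intron and 13.1 kb of exon. Nr1d1, at chr11:98767932-98775333, shares 8.55% of its exon bases with Thra on the opposite strand. Dbp, at chr7:45705088-45710203, shares 18.01% of its exon bases with Sphk2 on the opposite strand. No source used here says whether counting used strand, so reads of these pairs may not have been told apart.

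Each library held between 22.0 and 40.1 M reads in the tabled genes, and every measured gene of the list passed the filter on low values in each comparison. Values are normalised counts, the read counts divided by the authors' size factor. PND1 and PND21 were scaled together and PND42 apart, so levels at PND42 are not set against the earlier ages. Hepatocyte markers (Alb, Apoa1, Ttr, Apob and Cyp2e1) summed to between 980400 and 4495000 normalised counts at PND1 and PND21, and none was at 0. In bulk liver, fewer cells of a type and less RNA per cell cannot be told apart. Nothing in the labels says that animals of 1 group came from separate litters, and p-values measure the spread between these animals only. The tags of some animals of different age or sex begin alike, and no source used here says what that marks. Main fits treated all animals as independent.

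A single library stood apart in these genes. In PND21 exposed replicate 3, 202 genes were at least 2-fold above and 231 at least 2-fold below all 5 other PND21 libraries, against 12 to 72 above and 29 to 127 below for each of those 5. Among them were 5 of the 9 clock genes (Per1, Per2, Nr1d1, Dbp and Ciart), while no clock gene stood 2-fold outside the rest of its table in any other library. Ciart, a repressor of BMAL1, had 27.5 normalised counts in replicate 3, against 756 to 2435 in the other 5 libraries. Per1 had 299 against 2597 to 3697, and Per2, its fellow repressor, had 428 against 4228 to 6611. Dbp was likewise lower, at 461 against 1215 to 1945. On the other side, Arntl had 1014 normalised counts against 205 to 613, and Nr1d1 had 1594 against 309 to 745. In all, 5 of the 9 genes (with Cry1) were below all 5 other libraries in this animal and 2 were above, while Nr1d2 and Rora lay inside their range. Of all 13886 genes, 24% were below and 24.5% above all 5 others in the same library.

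**Figure D1:**
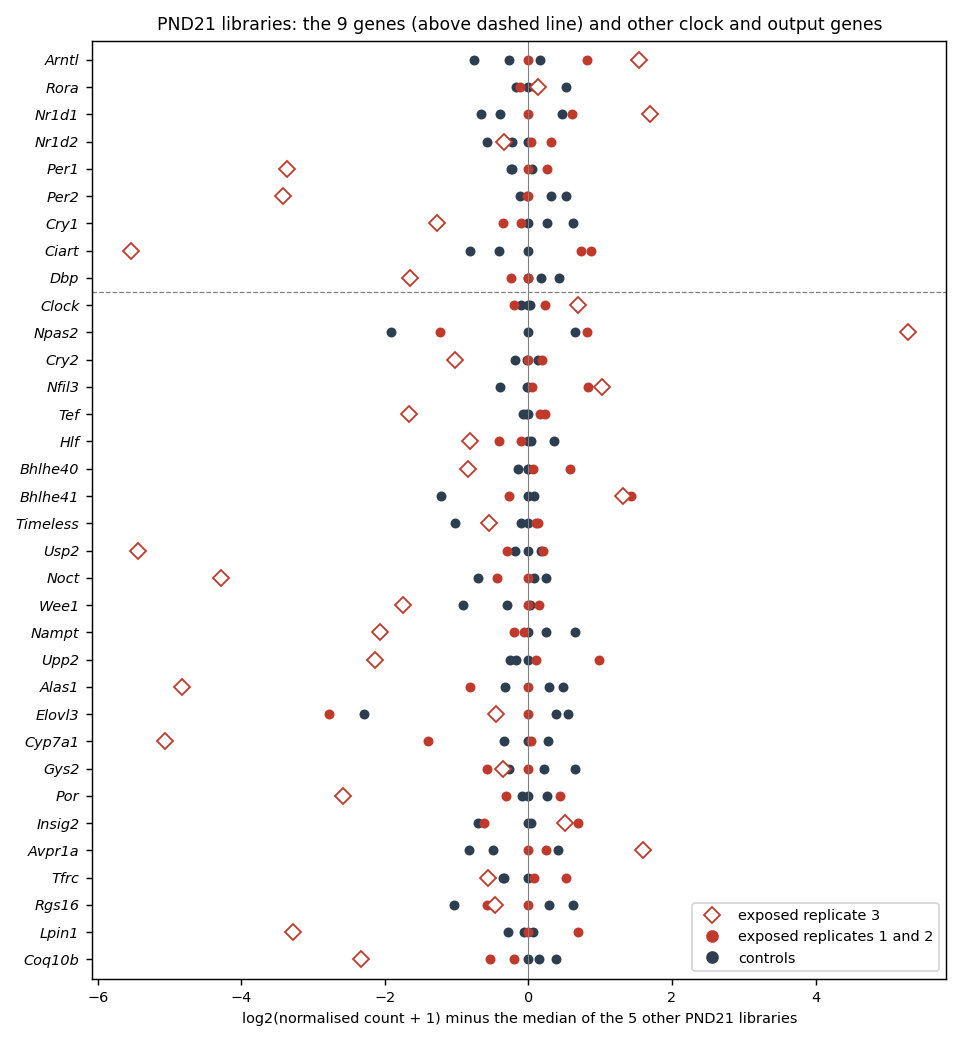
Each row is a gene and each point a PND21 library, placed by log2(normalised count + 1) minus the median of the 5 libraries other than exposed replicate 3. The open diamond, exposed replicate 3, lies far left for Ciart, Per1, Per2, Usp2 and Alas1 and far right for Npas2, while the other 5 libraries lie close together for most genes.

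Other clock and output genes set the same library apart. Npas2, the partner of BMAL1 that can stand in for CLOCK, had 348 normalised counts in exposed replicate 3 against 1.39 to 14.8 in the other 5 libraries. Usp2, a deubiquitinase with a strong daily rhythm, had 82.6 against 2958 to 4188. Alas1, the first enzyme of heme synthesis, had 1038 against 16830 to 41250, and Cyp7a1, the rate-limiting enzyme of bile acid synthesis, had 189 against 2404 to 7683. Of 16 rhythmic liver output genes, 11 were below all the others in replicate 3, 1 was above and 4 were inside. Of 10 other core clock genes, 5 were below, 3 above (Clock, Npas2 and Nfil3) and 2 inside. The share of these core clock genes above was close to the 24.5% of all genes. In both lists the share below was larger than the 24% of all genes. The summed markers of 4 other cell types were also higher in replicate 3 than in any other PND21 library. They were 26000 normalised counts for stellate cells and matrix, against at most 15620 in controls, 849 for cholangiocytes against at most 433, 6044 for Kupffer cells against at most 5196, and 240.5 for B cells against at most 148.2. Of the 4 stellate cell and matrix markers, 2 had a higher and 2 a lower mean in PND21 exposed than in control females. Other marker sums of replicate 3 lay inside the control range. They were 2336000 for hepatocytes against 2115000 to 4495000, 45280 for erythroid cells against 25910 to 80280, and 7011 for sinusoidal endothelium against 5238 to 7860. The only exocrine pancreas marker in the table had 2096, against at most 966.7 in controls. Mitochondrially encoded reads were 23.4% of its reads, against 13.9% and 16.4% in the other exposed libraries. Their part in its clock gene levels was not tested. Results that rest on this library are given with and without it.

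Levels of different genes were compared per kb of exon. In PND21 control females the order was Per2 (943 ± 206 normalised counts per kb, SD, n = 3), Dbp (559 ± 84.7), Per1 (498 ± 57.1), Ciart (454 ± 126), Rora (425 ± 111), Nr1d2 (322 ± 63.2), Cry1 (245 ± 53.8), Nr1d1 (147.2 ± 63.8) and Arntl (39.1 ± 12.2). Only Per2 against Dbp and Nr1d1 against Arntl had ranges that did not overlap among neighbours in that order. In PND1 control females Rora led with 369 ± 99.95 (SD, n = 4) and Ciart was last with 9.91 ± 1.92, and the 7 genes between them had overlapping neighbours. Ciart was thus in place 4 of 9 in PND21 controls and last in PND1 controls. At PND42 Arntl was the lowest in all 4 groups, with 10.5 per kb in exposed males, 31.6 in control males, 16.7 in exposed females and 21.8 in control females.

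The first comparison asked how the clock genes differed between PND21 and PND1, in control females. In PND21 controls 7 of the 9 genes were higher and Arntl was lower, and only Rora did not pass the test (limma, two-sided, p adjusted by Benjamini and Hochberg over all genes, threshold 0.05). The background was wide, since 56% of all 14259 genes passed, 27.7% of them upward and 28.3% downward. The 8 genes that passed were also those whose groups did not overlap, as in 55.2% of all genes. The median log2 fold change was 1.64 over the 9 genes and 0.0076 over all genes. Markers of other cells moved with age as well, with all 5 erythroid markers (25910 to 80280 summed normalised counts in PND21 controls, 210300 to 342000 in PND1 controls), all 4 B cell markers and 3 of 4 each for Kupffer cells and sinusoidal endothelium called lower in PND21 controls. Of 5 hepatocyte markers 4 were called higher, with a median log2 fold change of 1.12. Their part in the clock gene levels was not tested.

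Among the repressors, Ciart had 1325, 999.5 and 756 normalised counts in the 3 PND21 control females, against 21.7, 20.3, 28.7 and 18.9 in the 4 PND1 control females. The groups were far apart, and 1.42% of all genes had a fold change of larger size. Its log2 fold change was 5.44 ± 1.18 (SE; limma adjusted p = 0.00188). Per2 had 6611, 4228 and 5723 in PND21 controls, against 375, 958, 1119 and 731 in PND1 controls, a log2 fold change of 2.88 ± 0.69 (limma adjusted p = 0.00334). Per1 had 2638, 3173 and 2597 in PND21 controls, against 1142, 314, 507 and 832 in PND1 controls. The groups of Per1 and Per2 did not overlap, though PND1 controls varied 3.64-fold and 2.98-fold among themselves. The log2 fold change of Per1 was 2.16 ± 0.78 (limma adjusted p = 0.0323). Cry1 had 657, 783 and 1011 in PND21 controls, against 402, 314, 396 and 365 in PND1 controls, and its log2 fold change was 1.13 ± 0.26 (limma adjusted p = 0.00212).

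Dbp, the output factor, had 1443, 1632 and 1945 in PND21 controls, against 417, 299, 149.1 and 135 in PND1 controls. Every PND21 library was above every PND1 library, with a log2 fold change of 2.89 ± 0.53 (limma adjusted p = 0.000435). The REV-ERB genes were also higher. Nr1d1 had 309, 677 and 373 in PND21 controls, against 198, 175, 61.2 and 164 in PND1 controls, a log2 fold change of 1.64 ± 0.55 (limma adjusted p = 0.0214). Nr1d2 had a log2 fold change of 1.41 ± 0.31 (limma adjusted p = 0.00145), with 1388 to 2071 in PND21 controls and 480 to 865 in PND1 controls.

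Arntl went the other way. It had 289, 388 and 205 normalised counts in PND21 controls, against 786, 689, 685 and 712 in PND1 controls, so that every older animal was lower. It fell by 1.33 ± 0.29 on the log2 scale (limma adjusted p = 0.00117). Rora had 4440 to 7196 in PND21 controls and 3390.7 to 6033 in PND1 controls, groups that overlapped, with a log2 fold change of 0.21 ± 0.23 (limma adjusted p = 0.445). Where libraries were scaled to total reads, the median of all genes was -0.50, 1785 genes were called higher and 6865 lower (against 3944 and 4041 with the authors' scaling), and 5 of the 9 passed, without Per1, Nr1d1 and Cry1. The call of Per1 ended without PND1 control 2 or 3 or without any of the 3 PND21 controls (1.83 to 2.21, limma adjusted p from 0.0631 to 0.0855), and that of Nr1d1 without PND1 control 3 or PND21 control 2 (1.25 and 1.30, limma adjusted p = 0.0600 and 0.0943). With limma voom Ciart missed the threshold in controls (limma adjusted p = 0.0518) and in exposed females (0.1004).

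In exposed females the same age step was called for 5 of the 9 genes, against 46.9% of all genes (22.9% upward and 24% downward), and each of the 5 was higher. With total read scaling the median of all genes was -0.33, with 1825 genes called higher and 5381 lower, and Cry1 no longer passed (limma adjusted p = 0.0538). In 3 of the 9 the groups did not overlap, against 50.5% of all genes. Without PND21 exposed replicate 3 it was called for 7, against 46.3% of all genes. Nr1d1 had 745, 491 and 1594 normalised counts in PND21 exposed females, against 45.0, 181, 125 and 193 in PND1 exposed females, and rose by 2.80 ± 0.55 on the log2 scale (limma adjusted p = 0.000899). Nr1d2 rose by 1.69 ± 0.31, Dbp by 2.01 ± 0.53 and Cry1 by 1.03 ± 0.26 (limma adjusted p = 0.000458, 0.00676 and 0.00511). Ciart had 2435, 2193 and 27.5 in PND21 exposed females, against 22.2, 21.8, 35.1 and 55.3 in PND1 exposed females. PND21 exposed replicate 3 lay inside the newborn range. Its log2 fold change was 4.05 ± 1.18 (limma adjusted p = 0.0139) with that animal and 6.17 ± 0.35 (limma adjusted p = 1.01e-08) without it, and the call was lost without either of the other 2 PND21 exposed animals (2.96 and 3.03, limma adjusted p = 0.0658 and 0.0651). Per2 and Per1 passed only without it, at 2.13 ± 0.35 and 2.71 ± 0.52 against 1.00 ± 0.69 and 1.54 ± 0.78 with it. Arntl had a log2 fold change of 0.06 ± 0.29 in exposed females, or -0.31 ± 0.25 without replicate 3, and passed in neither.

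**Figure D2:**
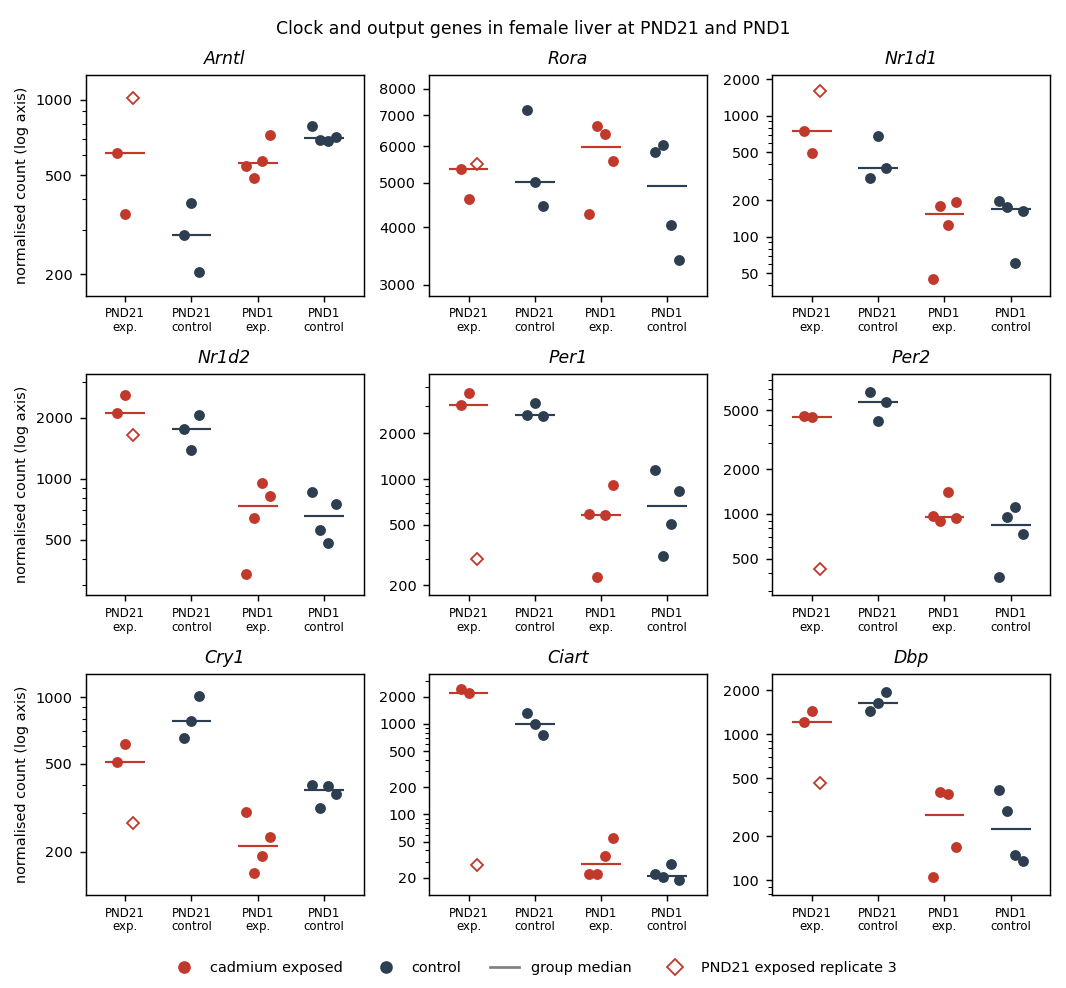
Each panel is a gene, each point a library and each bar a group median, as normalised counts on a log axis. PND21 libraries sit above PND1 libraries for Nr1d2, Dbp, Per1, Per2 and Ciart apart from exposed replicate 3 (open diamond), and PND21 controls sit below PND1 controls for Arntl.

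Whether the age step differed between exposed and control females was tested as an interaction, which 2 of 14259 genes passed (0.014%). None of the 9 clock genes did, and 1 had an unadjusted p under 0.05 with limma and with limma voom. That gene was Arntl, with a difference of 1.40 ± 0.40 on the log2 scale (limma unadjusted p = 0.00377, adjusted p = 0.345), or 1.02 ± 0.34 without PND21 exposed replicate 3 (limma adjusted p = 0.537).

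Exposure was then compared within each age. In newborn (PND1) females none of the 9 clock genes passed, with limma or limma voom, and neither did any of 14059 genes (0%), while 2039 genes and 2 of the clock genes had an unadjusted p under 0.05. Those 2 were Cry1 and Arntl, and both were lower in exposed animals. Cry1 had 301, 160, 191 and 232 normalised counts in exposed females, against 402, 314, 396 and 365 in control females. Every exposed animal was below every control, and groups stood apart in either direction in 7.76% of all genes. The log2 fold change was -0.77 ± 0.19 (limma unadjusted p = 0.00225, adjusted p = 0.244), and 2.99% of genes had a larger one. Arntl had 542, 487, 571 and 720 in exposed females, against 786, 689, 685 and 712 in control females. Only exposed replicate 4 lay inside the control range, and the log2 fold change was -0.32 ± 0.13 (limma adjusted p = 0.319). The other 7 had log2 fold changes between -0.27 and 0.49, with SE from 0.21 to 0.51. In the authors' deposited table for PND1, 72 of 6790 genes with an adjusted p passed (1.06%), and 0 of 7 clock genes with one. Cry1 and Nr1d1 had no adjusted p there, and the unadjusted p of Cry1 in the authors' test was 0.00444. Summed markers of sinusoidal endothelium did not overlap between the groups, at 7837 to 8805 normalised counts in exposed and 6129 to 6975 in control females. Of the 4 markers, 2 had a higher and 2 a lower mean in exposed females, with a median log2 fold change of 0.0046. None of the 4 passed, and their part was not tested.

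In PND21 females none of the 9 passed, against 5 of 13886 genes (0.036%). With limma and with limma voom 2 had an unadjusted p under 0.05, again Arntl and Cry1, as did 1329 of all genes with limma. Arntl had 613, 348 and 1014 normalised counts in exposed females, against 289, 388 and 205 in control females. Exposed replicates 1 and 3 were above all controls and replicate 2 was among them. The log2 fold change was 1.08 ± 0.39 (limma adjusted p = 0.478), and 0.70 ± 0.33 without exposed replicate 3 (limma adjusted p = 0.582). In the authors' deposited table Arntl was the only one of the 9 with an adjusted p under 0.05, at a log2 fold change of 1.16 and an adjusted p of 0.0184, where 3.13% of genes with an adjusted p passed. All 5 hepatocyte markers had a lower mean in exposed females, with a median log2 fold change of -0.59 (-0.76 without exposed replicate 3). All 4 B cell markers had a higher mean, with a median of 0.71 (0.54 without it). Erythroid, endothelial, stellate cell and cholangiocyte markers went both ways. No marker passed with limma, and their part was not tested.

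Cry1 and Dbp were lower in each PND21 exposed animal than in each control, and groups stood apart in either direction in 16.6% of all genes. Cry1 had 511, 612 and 271 in exposed females, against 657, 783 and 1011 in control females. Its log2 fold change was -0.87 ± 0.31 (limma adjusted p = 0.472), and -0.52 ± 0.22 without exposed replicate 3. Dbp had 1215, 1440 and 461 in exposed females, against 1443, 1632 and 1945 in control females, and exposed replicate 2 was only just below the lowest control. Its log2 fold change was -0.83 ± 0.40 (limma adjusted p = 0.523), and -0.33 ± 0.20 without exposed replicate 3.

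For Ciart, Per1, Per2 and Nr1d1 the sign or size turned on that animal. Ciart had a log2 fold change of -0.91 ± 1.90 (limma adjusted p = 0.891) with it and 1.21 ± 0.25 (limma adjusted p = 0.240) without it. Exposed replicates 1 and 2 had 2435 and 2193 normalised counts of Ciart, against 1325, 999.5 and 756 in controls, so 2 of the 3 exposed animals were above every control. The authors' deposited table gives a log2 fold change of 0.60 for Ciart. Of opposite sign to the fit here, it has the direction of the mean normalised counts, which were 1552 in exposed and 1027 in control females, whereas the fit here averages log2 values. Per1 had -0.89 ± 1.00 with replicate 3 and 0.27 ± 0.20 without it, and Per2 had -1.39 ± 0.97 and -0.26 ± 0.24. Nr1d1 had 0.97 ± 0.46 and 0.50 ± 0.35, and none of these passed. Nr1d2 had 0.27 ± 0.23 with all libraries and 0.44 ± 0.22 without exposed replicate 3, and Rora had -0.08 ± 0.23 and -0.13 ± 0.25.

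**Figure D3:**
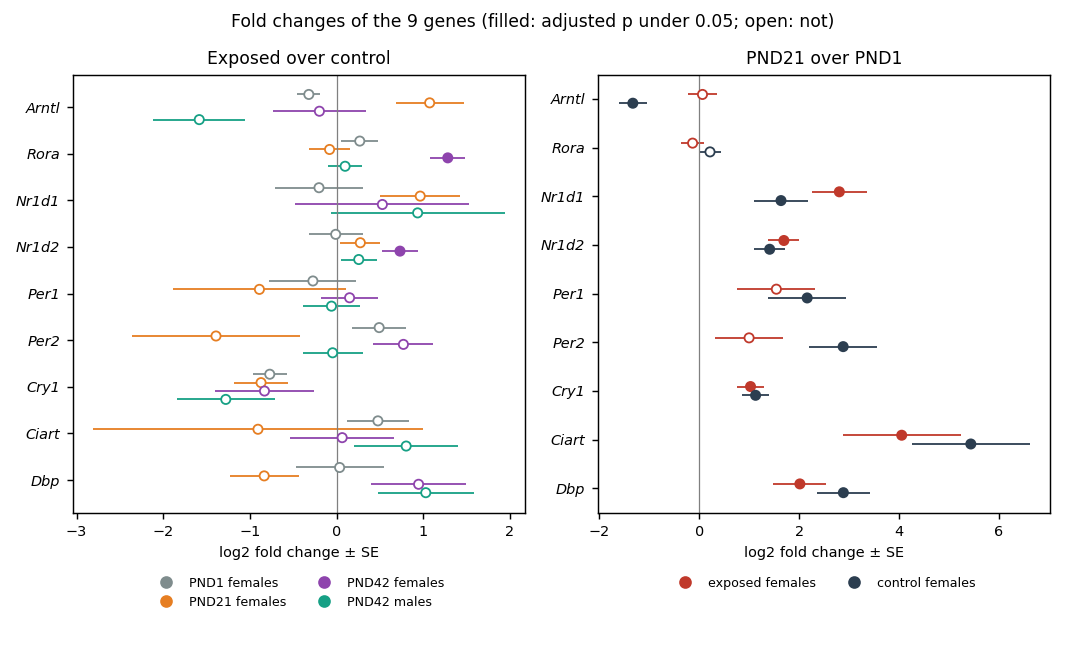
Log2 fold changes with their SE for the 9 genes, exposed over control in 4 groups on the left and PND21 over PND1 on the right; filled points passed at an adjusted p under 0.05. On the left only Rora and Nr1d2 in PND42 females are filled, and Cry1 lies left of 0 in all 4 groups. On the right 5 genes in exposed and 8 in control females are filled.

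In PND42 females 2 of the 9 rose with exposure and none fell, where 40.2% of all 13091 genes passed, 18.9% upward and 21.4% downward. The median log2 fold change was 0.53 over the 9 and 0.0024 over all genes. Rora, which encodes the activator of Arntl, had 6239, 4700, 5251 and 4341 normalised counts in exposed females, against 2608, 1669, 2402 and 1814 in control females. The groups were well separated, and Rora rose by 1.28 ± 0.20 on the log2 scale (limma adjusted p = 0.000133). Nr1d2, a repressor of Arntl, had 4512, 5127, 5477 and 3816 in exposed females, against 3006, 2646, 2882 and 2766 in control females. It rose by 0.73 ± 0.21 (limma adjusted p = 0.00918), with no overlap between the groups.

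Per2 also stood apart, with 4329, 4728, 4260 and 4835 in exposed females, against 2682, 3964, 1110 and 4197 in control females. Every exposed animal was above every control, but the controls varied 3.78-fold and the exposed animals 1.14-fold. The log2 fold change was 0.77 ± 0.35 (limma adjusted p = 0.0844). It passed when control replicate 3 or the unnumbered control was left out (limma adjusted p = 0.0491 and 0.0388). Together 3 of the 9 had groups that did not overlap, against 45.9% of all genes.

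The other 6 overlapped between PND42 exposed and control females. Arntl had 143, 45.5, 204 and 110 in exposed females, against 49.0, 339, 83.4 and 183 in control females, with a log2 fold change of -0.20 ± 0.53. Cry1 had 381, 239, 173 and 359 in exposed females, against 307, 1007, 174 and 1063 in control females, where 2 controls were high and 2 were low, with a log2 fold change of -0.83 ± 0.57. Dbp had 4363, 7354, 4747 and 4478 in exposed females, against 7775, 792, 5194 and 1540 in control females. The controls again formed a high and a low pair, and Dbp was low in the controls in which Cry1 was high. The log2 fold change of Dbp was 0.95 ± 0.55 (limma adjusted p = 0.186), and it passed without control replicate 2 (1.47 ± 0.49, limma adjusted p = 0.0295). Nr1d1 had 611, 2042, 2975 and 717 in exposed females, against 2173, 286, 2537 and 388 in control females, with a log2 fold change of 0.53 ± 1.00. Per1 and Ciart had log2 fold changes of 0.15 ± 0.33 and 0.07 ± 0.60.

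Several library measures moved with exposure in PND42 females. Mitochondrially encoded reads were 27.6% ± 6.29 of reads in exposed and 8.49% ± 3.15 in control females (SD, n = 4 each). Each of the 3 measures that follow separated the groups fully, at the smallest p that an exact two-sided permutation test of 4 against 4 can give (0.0286), or 0.152 adjusted over 16 tests. They were this share, the mean log2 level of Malat1 and Neat1 (15.7 in exposed and 13.8 in control females), and that of genes with over 300 kb of intron (8.93 in exposed and 7.46 in control females). Rora belongs to those long genes. Of 338 such genes 253 (74.9%) were called higher in exposed females and 1 lower, with a median log2 fold change of 1.41, against 1.28 for Rora. Hepatocyte markers summed to 1213000 to 2211000 normalised counts in exposed and 2848000 to 3871000 in control females, and 4 of 5 were called lower. Stellate cell and matrix markers (5390 to 7763 in exposed, 8804 to 11260 in control females, 2 of 4 called lower) and the 1 exocrine pancreas marker in the table (519 to 677 against 1070 to 1676, called lower) also did not overlap. Nor did sinusoidal endothelium markers, which summed to 5017 to 5128 in exposed and 4140 to 4515 in control females, with 1 of 4 called higher. The mean was higher in exposed females for 1 of these 4 and lower for 3, with a median log2 fold change of -0.21. Erythroid markers, the last library measure, overlapped (mean log2 level 10.1 in exposed and 10.6 in control females, exact permutation p = 0.114). The part of these measures in the levels of Rora and Nr1d2 was not tested. In the other exposure comparisons the mitochondrial share, Malat1 and Neat1, the long genes and the erythroid markers had exact permutation p-values from 0.229 to 0.6.

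In PND42 males none of the 9 passed and neither did any of 13091 genes (0%), with limma or limma voom. With limma 2 of the 9 had an unadjusted p under 0.05 (Arntl and Cry1), and with limma voom 1 (Arntl), where 932 of all genes did so with limma. Arntl had 108, 54.8, 49.7 and 104 normalised counts in exposed males, against 185, 189, 388 and 188 in control males. Every exposed male was below every control male. Arntl was the only 1 of the 9 whose groups stood apart, against 1.73% of all genes. The log2 fold change was -1.58 ± 0.53 (limma unadjusted p = 0.00856, adjusted p = 0.622), and 0.947% of genes had a larger one. Cry1 had 188, 187, 295 and 542 in exposed males, against 870, 287, 885 and 890 in control males. The groups overlapped through 1 control, the unnumbered male 1, and the log2 fold change was -1.28 ± 0.57 (limma adjusted p = 0.622).

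Dbp and Nr1d1 were higher on average in exposed males and overlapped with controls. Dbp had 4285, 8214, 6897 and 5602 in exposed males, against 3586, 4980, 2059 and 2126 in control males, a log2 fold change of 1.03 ± 0.55. Nr1d1 had 1225, 4048, 1069 and 910 in exposed males, against 603, 5462, 317 and 344 in control males. Apart from unnumbered control male 1, all exposed males were above all control males for Nr1d1, and its log2 fold change was 0.94 ± 1.00. Without that control it was 1.88. The remaining 5 genes had log2 fold changes from -0.06 to 0.80. Summed B cell markers did not overlap either, at 174.2 to 223.4 normalised counts in exposed and 20.7 to 136.9 in control males, with none of the 4 passing, and their part was not tested. Cry1 was lower on average in exposed animals in all 4 exposure comparisons, and passed in none of them.

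**Figure D4:**
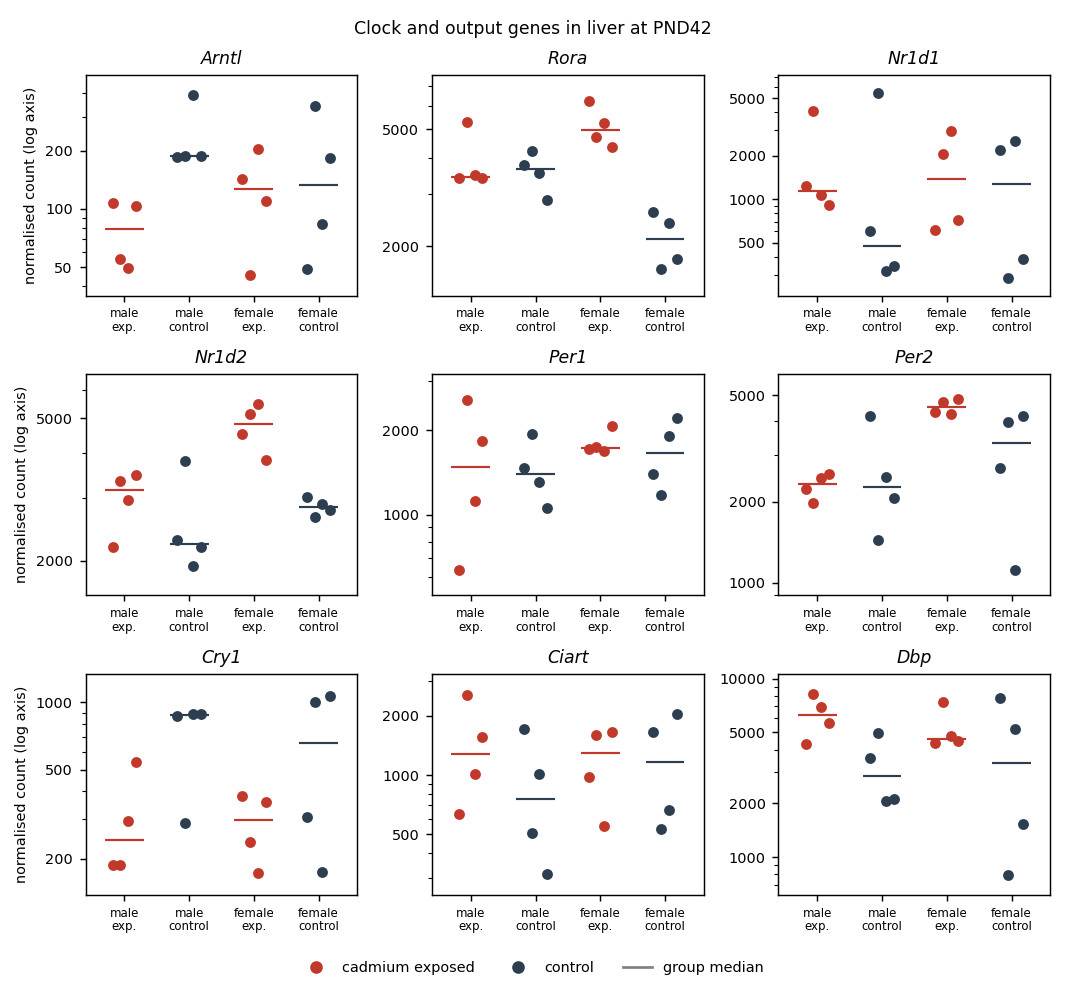
Each panel is a gene, each point a PND42 library and each bar a group median, as normalised counts on a log axis. Exposed females lie above control females for Rora, Nr1d2 and Per2, and exposed males lie below control males for Arntl.

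Whether the exposure effect at PND42 differed between females and males was tested as an interaction. Of the 9, only Rora passed, against 7.91% of all genes, with a female minus male difference of 1.19 ± 0.28 on the log2 scale (limma adjusted p = 0.0195). Scaled to total reads, 228 genes were called higher and 551 lower in this interaction, against 503 and 533, and Rora still passed (1.13, limma adjusted p = 0.0246). Rora had 3404, 5284, 3482 and 3400 normalised counts in exposed males, against 3769, 4229, 3539 and 2868 in control males, with overlap and a log2 fold change of 0.10 ± 0.20. Rora is among the 338 genes with over 300 kb of intron. With exposure, their median log2 fold change was 1.41 in PND42 females and 0.29 in PND42 males. The part of this class in the difference of Rora was not tested. Arntl had a female minus male difference of 1.39 ± 0.75 (limma adjusted p = 0.265). Among controls alone, Rora was also the only one of the 9 to pass between the sexes, against 6.93% of all genes. It was higher in control males than in control females by 0.77 ± 0.20 on the log2 scale (limma adjusted p = 0.0276). That call was lost when libraries were scaled to total reads (0.40, limma adjusted p = 0.153), where the median of all genes was -0.38 and 235 genes were called higher and 1875 lower, against 600 and 307 with the authors' scaling. It was also lost without control female 3, the unnumbered control female, control male 1 or unnumbered control male 2 (0.67 to 0.78, limma adjusted p from 0.0720 to 0.104). All 3 calls of Rora share the 4 control females, which had the lowest levels of the 4 groups.

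The rest of the pathway was read from lists of genes by role. Of the other core clock genes, 9 or 10 of 11 named were tested in each comparison. None passed with exposure at PND1, at PND21 or in PND42 males. In PND42 exposed females 2 rose, Bhlhe41 by 1.83 ± 0.58 and Tef by 0.64 ± 0.20, and Bhlhe40 fell by 1.25 ± 0.24 on the log2 scale (limma adjusted p = 0.0181, 0.0186 and 0.000615). Bhlhe40 and Bhlhe41 encode the DEC repressors, which bind E-boxes, and TEF is a D-box activator. These 3 of 9 tested stand against 40.2% of all genes called, and the median log2 fold change of the list was -0.05, against 0.0024 for all genes. The effect on Bhlhe40 also differed between the sexes, with a female minus male difference of -1.42 ± 0.34 (limma adjusted p = 0.0188). Of 6 genes for kinases and ubiquitin ligases of clock proteins, 1 passed in PND42 females, Btrc, which rose by 0.91 ± 0.21 (limma adjusted p = 0.00225). That count is close to the 18.9% of all genes called higher.

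Of 16 rhythmic liver output genes, none passed with exposure at PND21 or in PND42 males, nor did any of the 15 tested at PND1. In PND42 exposed females 2 fell, Insig2, a brake on sterol synthesis, by 1.35 ± 0.24, and Elovl3, a fatty acid elongase, by 1.07 ± 0.41 on the log2 scale (limma adjusted p = 0.000429 and 0.0448). These 2 of 16 stand against 21.4% of all genes called lower. The median of this list was -0.22 in PND42 females, -0.29 in PND42 males, -0.70 at PND21 and -0.28 at PND1, against -0.03 to 0.0024 for all genes. Without PND21 exposed replicate 3 the PND21 median was -0.07. Elovl3 was also higher in control males than in control females, by 3.92 ± 0.41 (limma adjusted p = 9.6e-06).

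The same lists were read between the ages. Between PND21 and PND1 controls, 11 of the 16 output genes rose and 1 fell, with a median log2 fold change of 2.02, against 27.7% of all genes called higher and 28.3% lower. Alas1 rose by 5.06 ± 0.83, Upp2, a uridine phosphorylase, by 3.60 ± 0.58, and Insig2 by 1.87 ± 0.27, while Tfrc, the transferrin receptor, fell by 2.45 ± 0.31. Of the 10 other core clock genes tested 3 rose and 3 fell, close to the shares of all genes, and among them Tef rose by 1.90 ± 0.39 and Hlf by 1.08 ± 0.18. Bhlhe41 fell by 3.79 ± 0.67, Npas2 by 3.49 ± 1.14 and Timeless by 1.72 ± 0.26. All of these passed (limma adjusted p from 1.23e-05 for Tfrc to 0.0185 for Npas2). Bhlhe41 and Npas2 were at low levels, where counting error is large. They had 11.5 to 51 and 35.9 to 126.9 normalised counts in PND1 controls. In the PND21 libraries other than exposed replicate 3 they had 0 to 5.27 and 1.39 to 14.8. Of 8 glucocorticoid response genes 7 rose, among them Tsc22d3 by 3.73 ± 0.28. All 7 feeding genes and 6 of 7 heat shock factor targets rose, while 2 of 9 fasting genes rose and 3 fell. Both cold induced genes fell, Rbm3 by 2.05 ± 0.23 and Cirbp by 1.73 ± 0.24. Per1 is a glucocorticoid target as well as a clock gene, and the part of that list in its level was not tested.

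Lists for heat shock factor targets, fasting and feeding were read beside the clock genes because their transcripts can also follow the daily cycle. None of their genes passed with exposure at PND1, at PND21 or in PND42 males. The median log2 fold change of heat shock factor targets was -1.46 in PND42 females, -1.24 in PND42 males and -1.03 at PND21 (-0.90 without exposed replicate 3), and the mean was lower in exposed animals for all 8, 8 and 7 tested. At PND1 their median was -0.085, with a lower mean for 4 of 6 tested and a higher mean for 2. Medians of all genes were -0.03 to 0.0024 in the exposure comparisons. None of the heat shock factor targets passed the test of whether the exposure effect at PND42 differed between females and males. Between control males and control females 2 of the 8 were called higher in males, with a median log2 fold change of 0.95. Of all genes, 6.93% were called in that comparison in either direction. In PND42 exposed females 4 of 8 heat shock factor targets fell, among them Hspa8 by 1.77 ± 0.47 (limma adjusted p = 0.00675). Of 9 fasting genes 2 fell, among them Cpt1a of fatty acid uptake into mitochondria by 0.66 ± 0.24. Of 7 feeding genes 1 fell, Me1, by 0.66 ± 0.25 (limma adjusted p = 0.0440). These counts stand against 21.4% of all genes called lower, and that of the fasting genes is close to it. None of 8 glucocorticoid response genes passed in any exposure comparison.

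Variation among animals of 1 group was described by each gene's deviation from its group mean. Over the 16 PND42 libraries, Dbp ran against Arntl, with Pearson's r of -0.849 and Spearman's rho of -0.818 (permutation within groups, p = 0.00077 and 0.00499; adjusted over 16 pairs, 0.0123 and 0.0798). Without the 2 libraries farthest in Arntl, control females 2 and 3, r was -0.713 over 14. The lowest Arntl among control females (49.0) went with the highest Dbp (7775), and the highest Arntl (339) with the lowest Dbp (792). No other pair with Arntl passed after adjustment. Over the 14 PND1 and PND21 libraries Dbp had r of -0.442 with Arntl, and -0.126 without the 2 farthest, PND21 exposed 2 and 3.

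**Figure D5:**
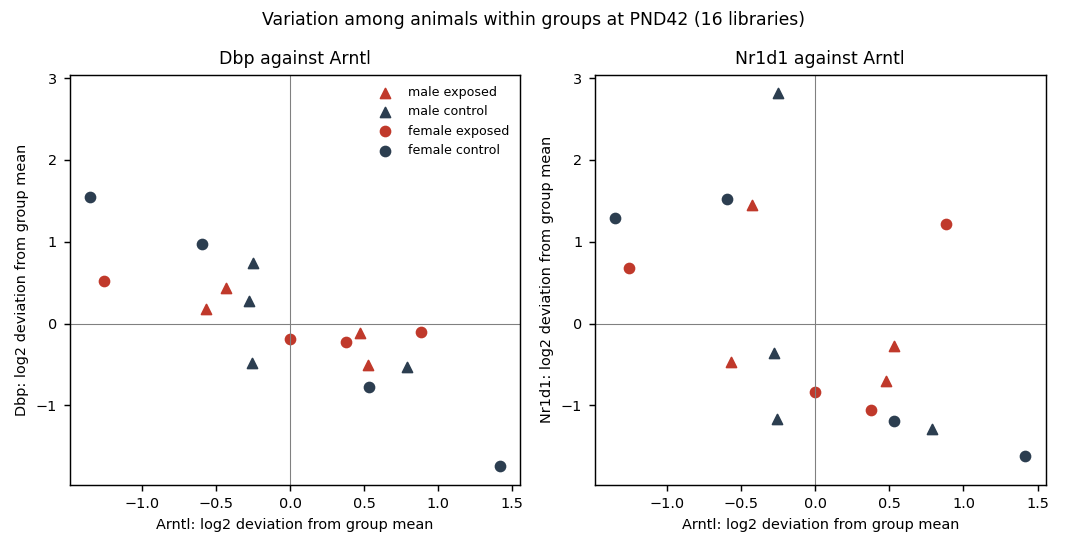
Log2 deviation from the group mean of Dbp (left) and Nr1d1 (right) against that of Arntl, for 16 PND42 libraries. Points for Dbp fall from upper left to lower right, with r of -0.849, while those for Nr1d1 scatter more widely, with r of -0.525.

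Nr1d1 had r of -0.525 with Arntl at PND42 and 0.574 at PND1 and PND21, and neither passed after adjustment (permutation within groups, adjusted p = 0.363 and 0.353). Other pairs are given as descriptions over the same 16 PND42 libraries, which share depth and scaling. Cry1 ran against Nr1d1 (r = -0.892) and Dbp (-0.726), and with Per2 (0.795). Nr1d1 ran with Dbp (0.780), Nr1d2 (0.723) and Rora (0.683). Unnumbered control male 1 showed these patterns in 1 animal, with the highest Nr1d1 of all PND42 libraries (5462) and the lowest Cry1 of its group (287).

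Genes whose deviations over all 30 libraries were most like those of Arntl were ranked among 10181 genes. Clock, its partner, led with r of 0.819 (0.801 without PND21 exposed replicate 3), and Nfil3, a D-box repressor that REV-ERB proteins hold down, was next with 0.726. Abtb2 (0.703), Dcaf10 (0.654) and Gxylt1 (0.653) followed. The most opposed to Arntl were Stap1 (-0.603), Gnas (-0.598), Dis3l2 (-0.581), B2m (-0.574) and Cbx1 (-0.572). Dis3l2, an exonuclease, was also among the 5 most like Dbp, at 0.706. The others most like Dbp were Dennd5b (0.770), ENSMUSG00000100371 (0.747), A930036K24Rik (0.723) and Gsdmd (0.697), and among the most opposed were Ykt6 (-0.720), Unc119b (-0.720), Gpatch11 (-0.710) and Spty2d1 (-0.706).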

How the data were processed

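Liver RNA was read as single-end 125 bp reads, and RNA integrity numbers were 7 or more per the labels. Per the submitters' processing notes FastQC, STAR, featureCounts and build mm10 were used, whose versions no source used here gives. The deposited tables hold log2 values that the authors made from read counts divided by a size factor, plus 1. This was read from the values: whole reads were recovered for nearly all of them within 0.1. The deposited signal column (baseMean) is the authors' mean over 14 libraries (PND1 and PND21) or 16 (PND42). The deposited p-value columns and the score column (test statistic) hold the authors' own tests, and only the fold changes and p-values were used, where named.

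Main tests used limma 3.58.1 (R 4.3.3) on the deposited log2 values (trend and robust set in eBayes), for genes with at least 10 normalised counts in as many libraries as the smallest group, two-sided, with Benjamini-Hochberg adjusted p under 0.05 as the threshold. The 4 PND42 groups shared 1 fit, as did the 4 groups of PND1 and PND21 for age. Correlations used 100000 permutations within groups (Python 3.11.15, scipy 1.17.1). Scripts were tested on simulated data. All clock genes of the list are named, with up to 4 passing genes of each other list and the 5 highest and 5 lowest correlations with Arntl and Dbp. Some genes that this rule names are not reported here. The members and lists were chosen with earlier results of these data known.

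Samples were grouped by the labels. Of the PND42 control columns, those of 1 female and 3 males carry no replicate number and are called unnumbered, and the female column carries the tag of PND21 control 1, so its sample is uncertain (0.0651% of genes shared equal reads with that library). Alternatives were other scalings, a pseudocount of 10, no filter, limma voom, no trend, other sets of groups, a replicate block and leaving out each library.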

Additional observations from a re-analysis of the deposited data

Results flagged for a closer look

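Of 54 sets of 4 animals (a gene in a group at PND1 or PND42), 5 held an animal far from the other 3 on the log2 scale, where chance flags about 1 in 20. Groups of 3 at PND21 were not examined this way. Rora had 5284 normalised counts in PND42 exposed male 2 against 3400 to 3482 in the other 3. Dbp had 7354 in PND42 exposed female 2 against 4363 to 4747. Among PND42 control males, Arntl had 388 in unnumbered male 2 against 185 to 189, and Cry1 had 287 in unnumbered male 1 against 870 to 890. Nr1d1 had 61.2 in PND1 control female 3 against 164 to 198.

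The exposure effect on Rora at PND42 differed between females and males by 1.19 on the log2 scale by the test of the difference itself (limma adjusted p = 0.0195). Genes with over 300 kb of intron, Rora among them, had median exposure effects of 1.41 in females and 0.29 in males. Their part was not tested.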

How the results depend on the processing

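Of 576 values of single clock genes under other settings with all libraries, 560 kept direction and call, 7 lost the call and 9 changed sign; of 738 with 1 library left out, 662 kept both, 13 lost and 5 gained a call and 58 changed sign. The causes were not tested. Sign changes touched log2 differences that had not passed. With total read scaling the exposure difference became 0.045 for Nr1d2 at PND1 (0.0017 with trimmed mean of M values scaling), 0.16 for Rora at PND21, and 0.045 for Per1 and 0.058 for Per2 in PND42 males. The same scaling gave -0.20 for Dbp in control males against control females, -0.30 for Rora in PND21 against PND1 controls, -0.27 for Arntl in PND21 against PND1 exposed females, and 0.083 for Cry1 in the PND21 minus PND1 exposure effect. It left 5 clock genes called between PND21 and PND1 controls (8 before) and 0 between control males and females (1 before).

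With 1 library left out, log2 differences with a changed sign ranged as follows. For exposure at PND1 these were Per1 (-0.60 to 0.12), Dbp (-0.23 to 0.41), Nr1d2 (-0.20 to 0.30) and Nr1d1 (-0.58 to 0.26), and at PND21 Ciart (-2.001 to 1.21), Rora (-0.23 to 0.12) and Per1 (-1.54 to 0.27). In PND42 females they were Arntl (-0.65 to 0.27), Ciart (-0.26 to 0.39), Nr1d1 (-0.012 to 1.03) and Per1 (-0.0053 to 0.30), and in PND42 males Per1 (-0.37 to 0.31), Per2 (-0.28 to 0.23) and Rora (-0.057 to 0.18). For the female minus male effect they were Cry1 (-0.048 to 0.85), Dbp (-0.66 to 0.43), Nr1d1 (-1.35 to 0.099) and Per1 (-0.15 to 0.52), and for control males against females Cry1 (-0.050 to 0.85), Dbp (-0.41 to 0.68), Nr1d1 (-1.13 to 0.31) and Per2 (-0.59 to 0.069). For age they were Arntl in exposed females (-0.31 to 0.46) and, in the PND21 minus PND1 exposure effect, Ciart (-2.48 to 0.73), Per1 (-1.26 to 0.55), Nr1d2 (-0.022 to 0.47) and Cry1 (-0.34 to 0.25). Clock genes called ranged from 0 to 1 between control males and females and from 6 to 8 between PND21 and PND1 controls.

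Counts over all genes that moved by over 1.5 times were those for PND21 exposure (5, against 2 with limma voom, 2 with no trend, 8 with the replicate block, 50 with PND1 and PND21 in 1 fit and 0 to 14 with 1 library left out), control males against females (907, against 2110 with total read scaling and 371 to 1979), the female minus male effect (1036, against 492 to 1929), and the PND21 minus PND1 exposure effect (2, against 4 with total read scaling, 0 with limma voom, 4 with no trend, 0 with the replicate block and 2 to 12). With 1 library left out, up to 5 genes passed at PND1 and 27 in PND42 males, against 0. Same-numbered exposed and control animals had correlations of -0.08 to 0.23, so the numbers were not taken as pairs, and the replicate block changed no call of a clock gene. The replicate block could not be fitted in PND42 males, where exposed and control columns share fewer than 2 numbers. It was not fitted for the contrasts between the sexes either. The lowest value of any clock gene was 18.9 normalised counts, from 23 reads (Ciart, PND1 control 4), where counting error is largest.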
